A study of Mus musculus with 12 samples.

Results

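The Fc gamma receptors and the signalling chain they share were followed as 5 transcripts, Fcgr1, Fcgr2b, Fcgr3, Fcgr4 and Fcer1g, taken by gene symbol from a table of 15584 genes. All 5 had a row, and all 5 were among the 13759 genes tested. The libraries came from mouse corpus callosum, the white matter tract that joins the hemispheres, in a study of microglial loss of the aryl hydrocarbon receptor (AHR), a ligand-activated transcription factor, during cuprizone demyelination. Cuprizone is a copper chelator that kills oligodendrocytes. The 4 groups of 3 libraries were AHR CKO mice given cuprizone (AHR CKO CPZ), wild-type mice given cuprizone (WT CPZ), AHR CKO mice without it (AHR CKO Ctrl) and wild-type mice without it (WT Ctrl). The series design places the AHR deletion in microglia. The sources used here do not give the promoter that drove the deletion, the part of Ahr removed, the age and sex of the mice, or the dose and length of cuprizone. Whether libraries within a group were distinct mice is also not labelled, and p-values then reflect only how these libraries vary, which may be technical.

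Fc gamma receptors bind the constant part of IgG and let phagocytes take up or respond to antibody-coated targets. In mice Fcgr1 encodes the high-affinity activating receptor, while Fcgr3 and Fcgr4 encode activating receptors for IgG in immune complexes. None of these activating chains signals alone: each pairs with the common gamma chain, encoded by Fcer1g, whose immunoreceptor tyrosine-based activation motif (ITAM) is phosphorylated by Src family kinases and then recruits Syk. Fcgr2b encodes the inhibitory receptor, which carries an inhibitory motif (ITIM) in its own tail and needs no gamma chain. In the brain parenchyma these receptors are known chiefly from microglia and macrophages.

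Of the 5 genes, 4 lie close together on chromosome 1 in GRCm38 (GENCODE M21), within 276 kb. They are Fcgr2b (chr1:170958617-170976547, minus strand), Fcgr4 (chr1:171018920-171029761, plus strand), Fcgr3 (chr1:171051174-171064935, minus strand) and Fcer1g (chr1:171229572-171234365, minus strand). Fcgr1 lies apart on chromosome 3 (chr3:96282909-96293969, minus strand). Because the members moved together, their promoters are shown where they held a match to motifs of factors known to act on Fc receptor genes. RefSeq (GRCm38.p6) gave a window of 250 bases before to 50 after a transcript start for all 5 genes. Both strands were searched for TTCNNNGAA (the gamma-activated site), for GAGGAA (the core bound by PU.1) and for GAAANNGAAA (a pair of interferon regulatory factor half-sites). Capitals mark the matches, each sequence reads 5′ to 3′ on the gene's strand, and no match overlapped another.
Fcgr1 (chr3:96293920-96294219, minus strand): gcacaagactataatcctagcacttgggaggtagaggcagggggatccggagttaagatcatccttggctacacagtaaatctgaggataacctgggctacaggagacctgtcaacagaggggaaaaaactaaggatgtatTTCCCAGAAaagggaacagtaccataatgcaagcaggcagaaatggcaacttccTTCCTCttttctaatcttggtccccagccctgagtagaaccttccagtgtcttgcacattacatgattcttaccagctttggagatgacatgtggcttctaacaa
Fcgr4 (chr1:171018676-171018975, plus strand): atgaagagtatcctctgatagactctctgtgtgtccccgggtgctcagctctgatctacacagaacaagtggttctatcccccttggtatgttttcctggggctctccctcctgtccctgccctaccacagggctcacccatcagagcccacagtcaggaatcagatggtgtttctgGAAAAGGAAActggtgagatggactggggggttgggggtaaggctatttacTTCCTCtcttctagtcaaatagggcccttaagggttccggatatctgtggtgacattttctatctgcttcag
Fcgr3 (chr1:171059354-171059653, minus strand): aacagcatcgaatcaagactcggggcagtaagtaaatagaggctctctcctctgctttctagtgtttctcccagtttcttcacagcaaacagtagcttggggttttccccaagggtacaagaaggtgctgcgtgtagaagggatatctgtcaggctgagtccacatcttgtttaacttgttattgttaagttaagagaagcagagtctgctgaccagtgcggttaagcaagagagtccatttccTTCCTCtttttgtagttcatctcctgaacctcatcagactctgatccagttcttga
The Fcgr1 window held TTCCCAGAA starting 109 bases before the transcript start, and GAGGAA on the opposite strand (printed as TTCCTC) starting 55 bases before it. Fcgr4 held GAAAAGGAAA starting 73 bases before its start and TTCCTC starting 22 bases before it. Fcgr3 held TTCCTC in the last 6 bases before its start. RefSeq gives Fcgr3 another start site, whose window is not printed, and there the same match begins 15 bases before the start. The Fcgr2b and Fcer1g windows held none of these letters. Among 32851 RefSeq promoter windows of the same length, 8.3% held TTCNNNGAA, 28.3% held GAGGAA and 3.44% held GAAANNGAAA, so a match describes the sequence only.

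Depth was estimated at 11400000 to 14900000 fragments per library. Libraries of a group correlated at r = 0.972 to 0.993 across genes, against 0.932 to 0.983 between groups. Ahr was near 2 FPKM in all groups, at 1.94 ± 0.567 in AHR CKO CPZ, 1.86 ± 0.141 in WT CPZ, 1.76 ± 0.332 in AHR CKO Ctrl and 1.78 ± 0.385 in WT Ctrl (SD, n = 3 each). In whole tissue, with the deleted part not given, it does not check the labels. The AHR CKO libraries were uneven in Cx3cr1, a chemokine receptor of microglia. The sources used here do not say whether the allele that deletes Ahr touches this gene, so its level may not stand for microglia in AHR CKO, and marker results are also given without it. It stood at 1.16, 22.7 and 29.6 FPKM in AHR CKO CPZ libraries 1 to 3, against 69.4, 49.4 and 58.7 FPKM in WT CPZ. In AHR CKO Ctrl it stood at 1.05, 9.60 and 0.801 FPKM, against 24.9, 24.4 and 22.6 FPKM in WT Ctrl. The 3 AHR CKO libraries under 2 FPKM (CPZ 1, Ctrl 1 and Ctrl 3) stand apart from the rest of their genotype, and the calls that rest on them are also given without them. Then 3.16% of tested genes were called higher and 0.334% lower with cuprizone in AHR CKO, 8.93% higher with cuprizone in WT, 2.75% lower in AHR CKO than in WT under cuprizone, and 0.00727% (1 gene) different without cuprizone. All 6 oligodendrocyte markers, among them Mbp, fell with cuprizone in both genotypes, as 2.98% of tested genes did in AHR CKO and 7.81% in WT. Without the 3 libraries 1 of the 6 was called lower in AHR CKO and 6 in WT. Their summed level was 3684 to 4558 FPKM in AHR CKO CPZ, 2791 to 3326 in WT CPZ, 8780 to 9345 in AHR CKO Ctrl and 9139 to 16630 in WT Ctrl. Choroid plexus markers ranged from 43.1 to 3735 FPKM in sum over the 12 libraries, most of it Ttr. That sum was higher in every AHR CKO Ctrl library (415 to 3577) than in WT Ctrl (43.1 to 154). Folr1 and Clic6 overlapped between these 2 groups. None of the 5 markers was called there, where 6.19% of tested genes were.

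All 5 transcripts were higher after cuprizone in both genotypes, and their order was the same throughout. In FPKM, which is scaled to transcript length so that genes can be set side by side, Fcer1g stood above Fcgr3, then Fcgr2b, Fcgr1 and Fcgr4, in 12 of 12 libraries. Since whole tissue was measured, more cells of a type and more RNA per cell cannot be told apart in any of these values.

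**Figure D1:**
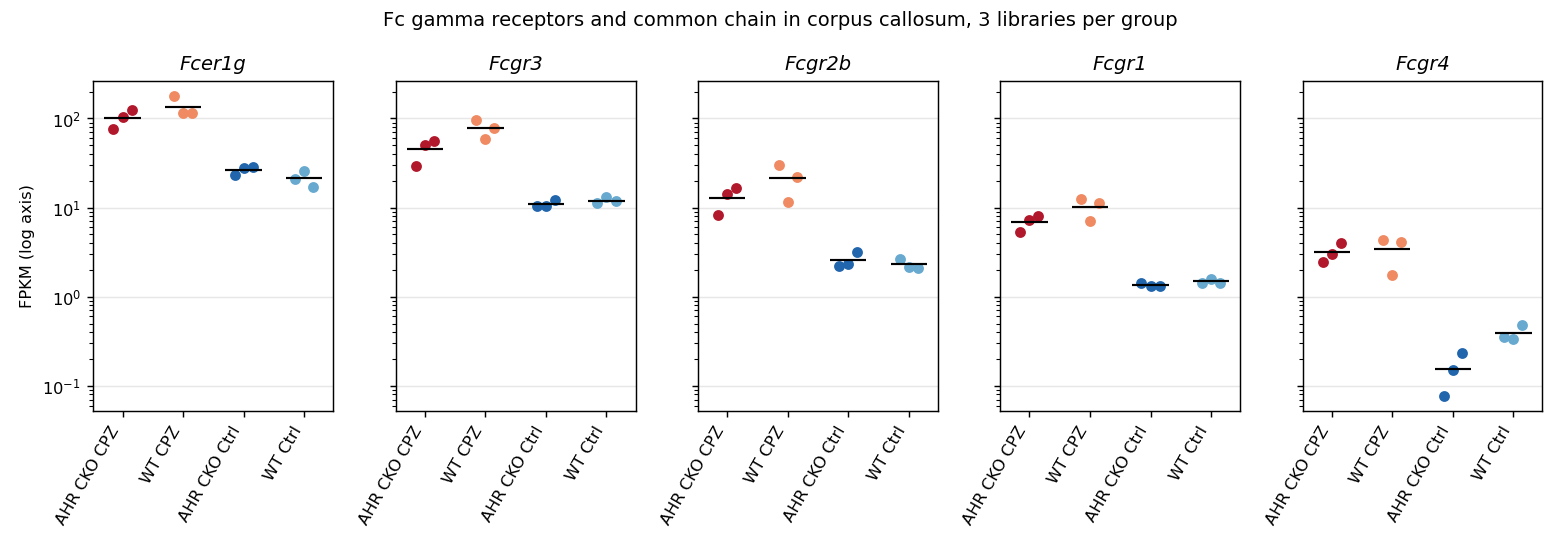
FPKM (log axis) of the 5 transcripts in each library (points) with the group mean (bar), AHR CKO beside WT within each treatment. Every cuprizone point lies above every control point of its genotype, and Fcgr4 is under 1 FPKM in all 6 control libraries.

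The common chain was the most abundant of them. Fcer1g measured 75.8, 104.5 and 123 FPKM in AHR CKO CPZ against 22.9, 27.6 and 28.7 FPKM in AHR CKO Ctrl. In WT it measured 178, 113.8 and 113.7 FPKM with cuprizone against 20.9, 25.5 and 17.2 FPKM without. The mean was 3.83-fold higher with cuprizone in AHR CKO and 6.38-fold higher in WT, with no overlap between treatments.

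Among the activating receptors, Fcgr3, the low-affinity receptor, carried most of the signal. It stood at 29.1, 50.7 and 55.2 FPKM in AHR CKO CPZ against 10.4, 10.3 and 12.02 FPKM in AHR CKO Ctrl. WT CPZ libraries held 95.8, 58.3 and 78.9 FPKM against 11.2, 12.995 and 11.8 FPKM in WT Ctrl. Cuprizone raised the mean 4.13-fold in AHR CKO and 6.49-fold in WT. Fcgr1, the high-affinity receptor, measured 5.29, 7.22 and 7.94 FPKM in AHR CKO CPZ against 1.41, 1.31 and 1.33 FPKM in AHR CKO Ctrl. Its WT values were 12.4, 7.13 and 11.2 FPKM with cuprizone against 1.43, 1.58 and 1.43 FPKM without. The control libraries of both genotypes held Fcgr1 within a narrow band, and the folds were 5.06 in AHR CKO and 6.92 in WT.

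Fcgr4, the least abundant member, was close to the detection limit in control tissue. It measured 2.47, 3.01 and 3.997 FPKM in AHR CKO CPZ against 0.0766, 0.149 and 0.234 FPKM in AHR CKO Ctrl, where these values are worth a rough 1.28 to 3.80 fragments a library. In WT it measured 4.30, 1.77 and 4.12 FPKM with cuprizone against 0.352, 0.339 and 0.483 FPKM without, an 8.68-fold difference of means. Its AHR CKO control values rest on too few fragments for a fold. Because Fcgr4 passed the filter on low values only through the cuprizone libraries, it had to differ with cuprizone, unlike the other 4, which were above 1 FPKM in every library.

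The inhibitory receptor rose as well. Fcgr2b stood at 8.26, 14.1 and 16.5 FPKM in AHR CKO CPZ against 2.21, 2.34 and 3.20 FPKM in AHR CKO Ctrl. In WT CPZ it stood at 29.9, 11.6 and 22.2 FPKM against 2.66, 2.16 and 2.08 FPKM in WT Ctrl. Its 9.22-fold difference in WT was the widest of the members above 1 FPKM in every library, and in AHR CKO it was 5.01-fold. Fcgr2b and Fcgr3 share sequence: 166 of the 1298 stretches of 50 bases in the longest Fcgr3 transcript also occur in Fcgr2b (12.8%), so how the counting split such fragments between them is uncertain. Of the 3495 such stretches in the longest Fcgr2b transcript, 436 (12.5%) occur in some other gene, over 145 genes with Fcgr3 among them. The Fcgr2b level, and the ratios that use it, are uncertain in the same way. Fcgr1, Fcgr4 and Fcer1g shared none with another member.

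On log2(FPKM + 1), tested with limma over all genes, the 4 members above 1 FPKM in every library were called higher with cuprizone in AHR CKO, where 7.22% of tested genes were called higher. Their log2 changes were 1.88 for Fcer1g (adjusted p = 0.000123), 1.90 for Fcgr3 (0.00014), 1.92 for Fcgr2b (0.00106) and 1.72 for Fcgr1 (7.21e-05). In WT, where 9.08% of tested genes were called higher, the same 4 gave 2.60 (9.57e-06), 2.57 (1.12e-05), 2.66 (5.93e-05) and 2.15 (1e-05) in that order. Fcgr4 gave 1.84 in AHR CKO and 1.60 in WT, as a description without a test. By size of change in AHR CKO the 4 stood between places 100 and 141 of 13759, led by Fcgr2b, and in WT between places 35 and 87, again led by Fcgr2b. The median of the 4 was 1.89 in AHR CKO against -0.01 for all tested genes, and 2.59 in WT against -0.04. Treatments did not overlap for these 4 in either genotype, which held in the higher direction for 14.3% of tested genes in AHR CKO and 15.8% in WT. With the 3 libraries low in Cx3cr1 left out, 1 AHR CKO control library remained, assumed to vary like the other groups, and the changes of the members in AHR CKO were 1.89 to 2.28. All 4 that could be tested kept their call.

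**Figure D2:**
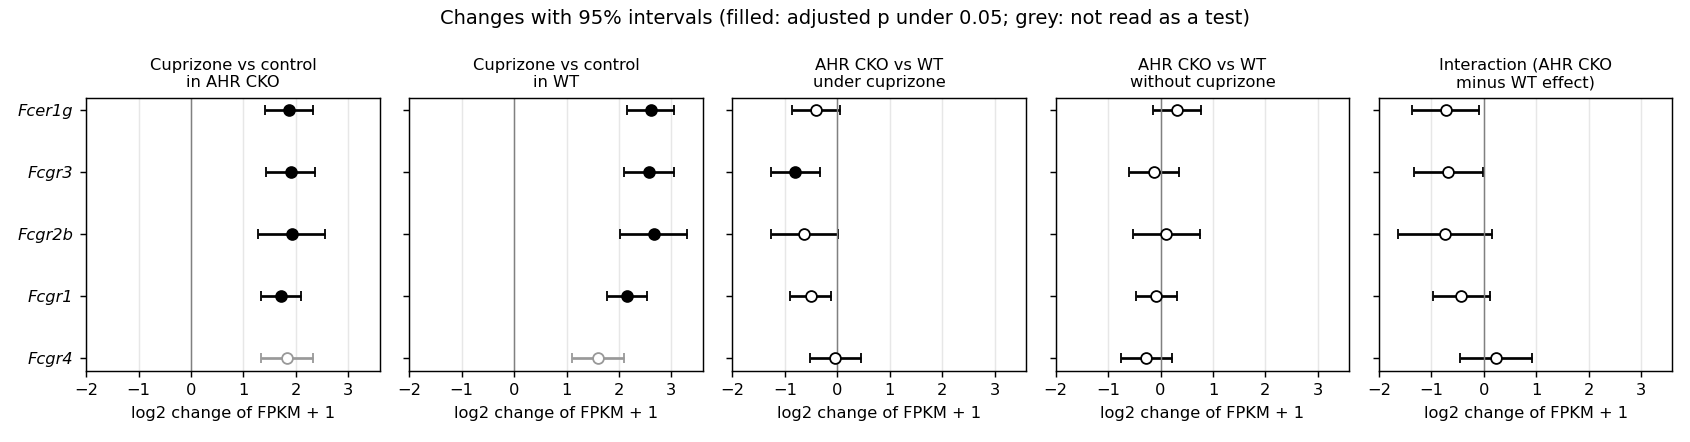
log2 change of FPKM + 1 (x axis) of each member in 5 comparisons, with 95% intervals from limma, filled where the adjusted p was under 0.05, and in grey for Fcgr4 with cuprizone, which is not read as a test. The cuprizone changes lie between 1.60 and 2.66, whereas of the differences between genotypes Fcgr3 under cuprizone is filled, at -0.80.

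Under cuprizone the genotypes differed by a call in Fcgr3 alone. The receptor averaged 44.97 ± 13.96 FPKM in AHR CKO CPZ and 77.7 ± 18.8 FPKM in WT CPZ (SD, n = 3 each), 42.1% lower, with every AHR CKO value under every WT value. Its log2 change was -0.80 (95% interval -1.27 to -0.33, adjusted p = 0.0256). This is 1 of 5 members, set against 10.8% of tested genes called lower and 20.0% lower without overlap, a background in which 1 call among 5 genes is no unusual share. The call rested on single libraries: without AHR CKO CPZ 1, the library low in Cx3cr1, the change was -0.52 (adjusted p = 0.0864). It was -0.63 (0.0924) without WT CPZ 1 and -0.77 (0.0738) without WT CPZ 3. With all 3 AHR CKO libraries low in Cx3cr1 left out, it was -0.52 (0.123).

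The other members had lower means in AHR CKO CPZ but did not pass. Fcgr1 averaged 6.82 ± 1.37 FPKM in AHR CKO CPZ and 10.2 ± 2.76 FPKM in WT CPZ (log2 change -0.51, adjusted p = 0.0611). Fcgr2b averaged 12.9 ± 4.23 FPKM in AHR CKO CPZ and 21.2 ± 9.16 FPKM in WT CPZ (-0.63, 0.14). Fcer1g averaged 101 ± 23.8 FPKM in AHR CKO CPZ and 135 ± 37.4 FPKM in WT CPZ (-0.41, 0.174). In all 3 the ranges overlapped, with WT CPZ 2 below the highest AHR CKO value and, for Fcer1g, WT CPZ 3 as well. Without WT CPZ 2, Fcgr1 passed at -0.73 (adjusted p = 0.0118) and Fcgr2b at -0.99 (0.0204), and without AHR CKO CPZ 3 Fcgr1 passed at -0.61 (0.0427). Fcgr4 averaged 3.16 ± 0.777 FPKM in AHR CKO CPZ and 3.399 ± 1.41 FPKM in WT CPZ, with a log2 change of -0.04 and an interval of -0.53 to 0.45. The spread within cuprizone groups was shared by the members. AHR CKO CPZ 1 was the lowest of its group for 5 of 5 members and AHR CKO CPZ 3 the highest for 5, while WT CPZ 1 was the highest of its group for 5 and WT CPZ 2 the lowest for 4.

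Without cuprizone no member passed between genotypes, where 6.19% of tested genes did, and none reached an unadjusted p under 0.05, which 27.6% did. Fcer1g averaged 26.4 ± 3.06 FPKM in AHR CKO Ctrl and 21.2 ± 4.16 FPKM in WT Ctrl (log2 change 0.31, interval -0.14 to 0.77). Fcgr3 averaged 10.9 ± 0.985 FPKM in AHR CKO Ctrl and 11.98 ± 0.935 FPKM in WT Ctrl (-0.13, interval -0.60 to 0.34). Fcgr2b averaged 2.58 ± 0.541 FPKM in AHR CKO Ctrl and 2.30 ± 0.309 FPKM in WT Ctrl (0.11, interval -0.53 to 0.75). Fcgr1 averaged 1.35 ± 0.0524 FPKM in AHR CKO Ctrl and 1.48 ± 0.0886 FPKM in WT Ctrl, and Fcgr4 0.153 ± 0.0789 FPKM in AHR CKO Ctrl and 0.391 ± 0.0799 FPKM in WT Ctrl. Both were lower in AHR CKO without overlap, as 21.9% of tested genes were, with log2 changes of -0.08 and -0.27 (adjusted p = 0.806 and 0.46).

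The cuprizone response itself was not called different between genotypes in any member, as in nearly all genes (0.0363% were called). The interaction, AHR CKO response minus WT response, was -0.73 for Fcer1g (unadjusted p = 0.0305, adjusted p = 0.464), -0.67 for Fcgr3 (unadjusted 0.0487, adjusted 0.518), -0.74 for Fcgr2b, -0.43 for Fcgr1 and 0.23 for Fcgr4. An unadjusted p under 0.05 occurred in 9.56% of tested genes. Averaged over both treatments, Fcgr3 was lower in AHR CKO (-0.46, adjusted p = 0.0361, limma) where 19.1% of tested genes were called lower. That call was lost in 9 of 12 fits that left out a single library (all but AHR CKO CPZ 2, AHR CKO CPZ 3 and WT CPZ 2), with adjusted p up to 0.0793, and without the 3 libraries low in Cx3cr1 (-0.36, adjusted p = 0.141).

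The balance of activating and inhibitory transcripts was taken within each library as the summed FPKM of Fcgr1, Fcgr3 and Fcgr4 over that of Fcgr2b, as a description without a test. The ratio was 4.46, 4.32 and 4.07 in AHR CKO CPZ, 3.77, 5.79 and 4.25 in WT CPZ, 5.37, 5.01 and 4.24 in AHR CKO Ctrl and 4.88, 6.90 and 6.57 in WT Ctrl. Ranges overlapped between treatments in both genotypes. With Fcgr3 alone over Fcgr2b they did not overlap in AHR CKO, at 3.35 to 3.59 with cuprizone against 3.75 to 4.69 without, and they overlapped in WT, at 3.21 to 5.02 with cuprizone against 4.203 to 6.01 without. Within the activating sum the Fcgr4 share overlapped between treatments in WT but not in AHR CKO. Fcgr4 gave 4.94% to 6.70% of it in AHR CKO CPZ against 0.647% to 1.72% in AHR CKO Ctrl. In WT the share was 2.63% to 4.37% with cuprizone against 2.27% to 3.53% without. The AHR CKO Ctrl shares rest on a rough 1.28 to 3.80 Fcgr4 fragments a library, too few to read a shift. Fcgr3 remained the bulk, at 78.9% to 83.2% in AHR CKO CPZ, 83.7% to 86.8% in WT CPZ, 87.5% to 88.5% in AHR CKO Ctrl and 86.0% to 87.1% in WT Ctrl. The common chain exceeded the receptors that use it in every library. Fcer1g over the activating sum was 2.06, 1.72 and 1.83 in AHR CKO CPZ and 1.59, 1.69 and 1.21 in WT CPZ. Without cuprizone it was 1.94, 2.35 and 2.11 in AHR CKO and 1.62, 1.71 and 1.25 in WT. The AHR CKO values lay above the WT values in both treatments without overlap, by a narrow margin under cuprizone. How often ratios of other genes separate between groups in this way was not counted.

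**Figure D3:**
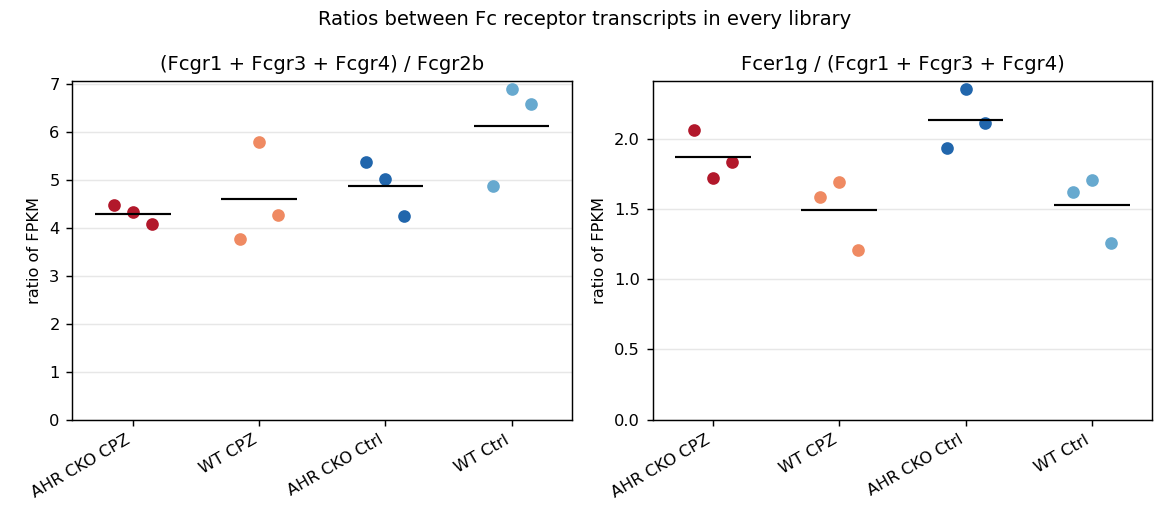
Ratios of FPKM in each library (points) with the group mean (bar): left, the activating sum over Fcgr2b; right, Fcer1g over the activating sum. On the left the groups overlap between treatments, and on the right the AHR CKO libraries, at 1.72 to 2.35, lie above the WT libraries, at 1.21 to 1.71.

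Part of the microglial marker list rose with cuprizone. Of 13 markers, 5 rose in AHR CKO and 7 in WT, where 7.22% and 9.08% of tested genes rose, and none fell. The homeostatic markers Tmem119 and P2ry12 did not pass. Tmem119 averaged 16.1 ± 1.14 FPKM in AHR CKO CPZ against 15.9 ± 0.861 FPKM in AHR CKO Ctrl, and 17.8 ± 5.397 FPKM in WT CPZ against 17.5 ± 2.55 FPKM in WT Ctrl. P2ry12 averaged 15.1 ± 3.48 FPKM in AHR CKO CPZ against 20.2 ± 1.07 FPKM in AHR CKO Ctrl, and 21.8 ± 4.55 FPKM in WT CPZ against 24.5 ± 2.36 FPKM in WT Ctrl. Under cuprizone 5 of 13 were lower in AHR CKO, where 10.8% of tested genes were, or 8 after scaling to TPM and 3 without the libraries low in Cx3cr1. Of the 12 other than Cx3cr1, 5 were lower, or 2 without those libraries. Averaged over both treatments, where Fcgr3 was also called lower, 9 of the 13 were lower in AHR CKO, and 8 of the 12. This compares with 19.1% of tested genes, and both counts shrank without the libraries low in Cx3cr1. The 12 summed to 326 to 570.1 FPKM in AHR CKO CPZ, 554 to 835 in WT CPZ, 211 to 225 in AHR CKO Ctrl and 244 to 249.9 in WT Ctrl. With Cx3cr1, the summed level of the list was 327 to 600 FPKM in AHR CKO CPZ, 603 to 904 in WT CPZ, 212 to 226 in AHR CKO Ctrl and 267 to 275 in WT Ctrl. Csf1r, the receptor microglia need for survival, averaged 63.8 ± 21.5 FPKM in AHR CKO CPZ and 102 ± 21.3 FPKM in WT CPZ, a log2 change of -0.71 (adjusted p = 0.0395, limma), which was -0.40 (0.159) without the libraries low in Cx3cr1. AHR CKO CPZ 1, the lowest of the 6 cuprizone libraries for Fcer1g, Fcgr1, Fcgr2b and Fcgr3 but not for Fcgr4, also held the lowest marker sum of the cuprizone libraries. Aif1, the source of the Iba1 antigen, was close between genotypes under cuprizone, at 23.6 ± 5.33 FPKM in AHR CKO CPZ and 25.6 ± 5.38 FPKM in WT CPZ. What part these markers, or the number of microglia, had in the receptor differences was not tested.

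Against the mean of 12 of these markers (Cx3cr1 left out, since it was uneven within AHR CKO), the members still stood higher with cuprizone. Of the 12, 5 were called higher with cuprizone in AHR CKO and 7 in WT, so the mean includes markers that were not called. Spi1, a marker of the list that rose by 1.63 in AHR CKO and 2.06 in WT, came close to Fcgr1 (1.72 and 2.15). Fcer1g, Fcgr3 and Fcgr2b rose by more than Spi1 in both genotypes. On the log2 scale the gain relative to the markers in AHR CKO was 1.21 for Fcer1g, 1.24 for Fcgr3, 1.26 for Fcgr2b, 1.06 for Fcgr1 and 1.17 for Fcgr4. In WT it was 1.59 for Fcer1g, 1.57 for Fcgr3, 1.65 for Fcgr2b, 1.14 for Fcgr1 and 0.59 for Fcgr4. Treatments did not overlap in any of these, as in 2.94% of tested genes in AHR CKO and 2.02% in WT set against the same markers. Fcgr4 is again a description, since its place among the tested genes came from the cuprizone libraries. Against Csf1r alone the gains were smaller, 0.64 to 0.84 in AHR CKO and 0.06 to 1.12 in WT. There Fcgr4 was the lowest and overlapped between treatments. The scale of log2(FPKM + 1) understates changes of low genes, and in WT Ctrl Fcgr4 averaged 0.391 FPKM and Fcgr1 1.48 FPKM. Their gains against the markers and Csf1r are therefore understated, and the low place of Fcgr4 is not read. Between genotypes under cuprizone, Fcgr3 relative to the 12 markers was 0.29 lower in AHR CKO without overlap, as 1.21% of tested genes were. Without AHR CKO CPZ 1 it was 0.19 lower. The ranges overlapped with Cx3cr1 among the markers (-0.15) and against Csf1r alone (-0.09). Fcgr4 relative to the markers was higher in AHR CKO CPZ than in WT CPZ, by 0.47 against the 12 markers, 0.61 with Cx3cr1 among them and 0.67 against Csf1r, without overlap in each. Higher without overlap against the 12 markers held for 36.3% of tested genes.

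**Figure D4:**
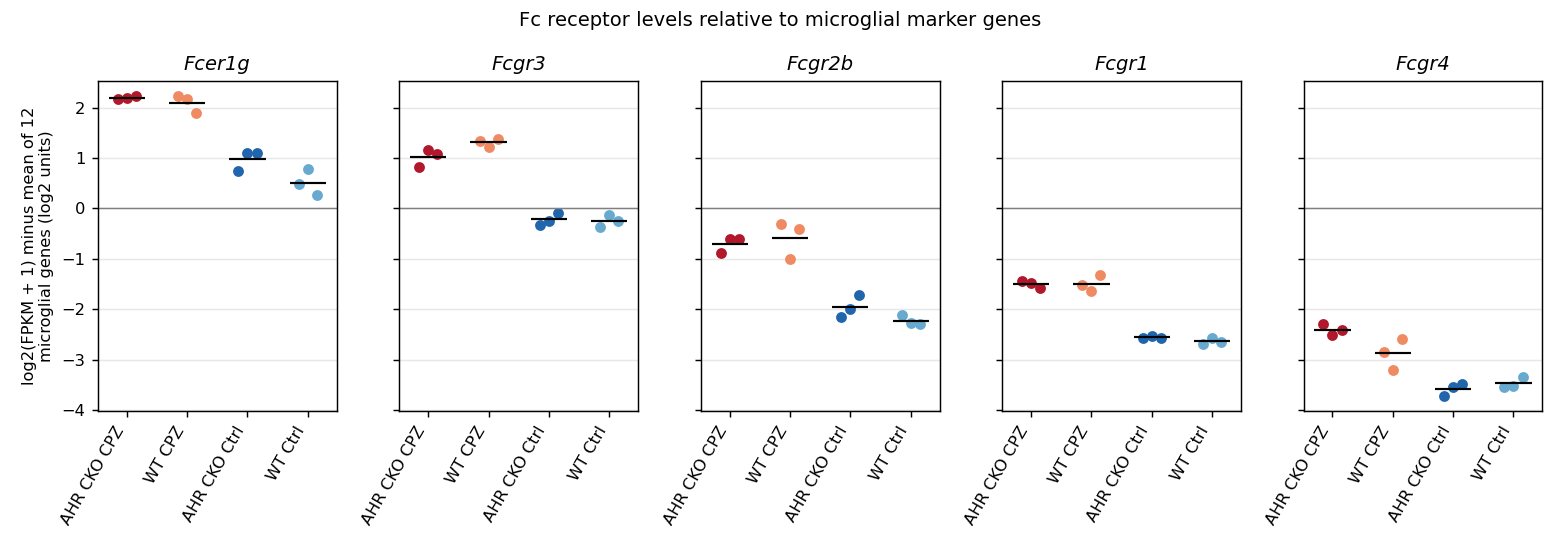
log2(FPKM + 1) of each member minus the mean of 12 microglial markers (y axis, log2 units) in each library (points) with the group mean (bar). Cuprizone libraries lie above control libraries of the same genotype in every panel, and Fcgr4 shows the widest gap between genotypes under cuprizone, 0.47.

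Markers of other cells that carry Fc gamma receptors were scarce. Of 9 markers of border macrophages and monocytes, 8 had a row, and 5 of them, Mrc1, Cd163, Lyve1, F13a1 and Ccr2, were under 1 FPKM in all cuprizone libraries. The list summed to 4.19 to 7.01 FPKM in AHR CKO CPZ, 3.75 to 6.68 in WT CPZ, 3.42 to 5.05 in AHR CKO Ctrl and 2.79 to 3.27 in WT Ctrl. These sums overlapped between treatments in AHR CKO but not in WT. Ly6c2 averaged 1.57 FPKM in AHR CKO CPZ, 1.32 in WT CPZ, 0.250 in AHR CKO Ctrl and 0.444 in WT Ctrl. Pf4 averaged 1.41 FPKM in AHR CKO CPZ, 1.55 in WT CPZ, 2.47 in AHR CKO Ctrl and 0.957 in WT Ctrl. Of 3 members tested, 1 rose in AHR CKO (Ms4a7, at 1.23 ± 0.415 FPKM in AHR CKO CPZ against 0.0659 ± 0.114 FPKM in AHR CKO Ctrl) and none in WT. Ms4a7 passed the filter on low values only through the cuprizone libraries, and its call was lost without the libraries low in Cx3cr1 (adjusted p = 0.216). The neutrophil marker S100a9 lay between 0.363 and 1.59 FPKM and the natural killer cell marker Klrb1c between 0 and 0.256 FPKM over the 12 libraries. The 2 T cell markers with a row, Cd4 and Cd8a, summed to 4.999 to 11.9 FPKM in AHR CKO CPZ, 2.30 to 5.27 in WT CPZ, 8.09 to 11.8 in AHR CKO Ctrl and 3.09 to 19.3 in WT Ctrl, nearly all of it Cd4, which was not called. The 3 dendritic cell markers with a row summed to 2.94 to 3.47 FPKM in AHR CKO CPZ, 3.20 to 4.42 in WT CPZ, 3.22 to 4.31 in AHR CKO Ctrl and 2.499 to 3.21 in WT Ctrl. B cell and mast cell markers were not analysed here. Endothelial markers summed to 108 to 138 FPKM in AHR CKO CPZ, 118 to 130 in WT CPZ, 132 to 138 in AHR CKO Ctrl and 115 to 134 in WT Ctrl, and none of the 6 was called with cuprizone. The part of the choroid plexus or oligodendrocyte differences in the receptor values was not tested.

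Other receptors of the family were few in the table. Of 13 symbols 3 were tested, and all 3 rose with cuprizone in both genotypes, where 10.2% of tested genes were called in either direction in AHR CKO and 16.9% in WT. Fcrls, a secreted Fc receptor-like protein typical of microglia, averaged 36.5 ± 10.0 FPKM in AHR CKO CPZ against 11.9 ± 1.47 FPKM in AHR CKO Ctrl, and 70.99 ± 17.6 FPKM in WT CPZ against 12.9 ± 1.02 FPKM in WT Ctrl. It was lower in AHR CKO than in WT under cuprizone (-0.95, adjusted p = 0.00993, limma), as Fcgr3 was. Trim21, which binds antibody in the cytosol, averaged 3.01 ± 0.169 FPKM in AHR CKO CPZ against 1.47 ± 0.374 FPKM in AHR CKO Ctrl, and 2.96 ± 0.635 FPKM in WT CPZ against 1.25 ± 0.110 FPKM in WT Ctrl. Fcgrt, the neonatal receptor that recycles IgG, passed with smaller changes of 0.49 in AHR CKO (adjusted p = 0.0474) and 0.46 in WT (0.0429), both lost after scaling to TPM (0.101 and 0.0564). With the libraries low in Cx3cr1 left out, 1 of the 3 (Fcrls) was called in AHR CKO, 2 in WT, and none between genotypes under cuprizone, where Fcrls gave -0.75 (adjusted p = 0.0609). Tyrobp, the adaptor most like the common chain, averaged 165 ± 25.5 FPKM in AHR CKO CPZ, 264 ± 55.3 in WT CPZ, 32.0 ± 6.91 in AHR CKO Ctrl and 32.1 ± 9.79 in WT Ctrl. It rose with cuprizone in both genotypes (2.34 and 3.02), and its difference between genotypes under cuprizone was -0.66 (adjusted p = 0.0536). Oscar, the other adaptor partner tested, stood near 1 FPKM and did not pass in these comparisons. As for ligands, the pentraxin Ptx3 was higher with cuprizone in AHR CKO, at 1.78 ± 1.27 FPKM in AHR CKO CPZ against 0.223 ± 0.0851 FPKM in AHR CKO Ctrl (adjusted p = 0.0423, or 0.0708 after quantile normalization), having passed the filter only through the cuprizone libraries. Because of that filter, the Ptx3 changes with cuprizone are a description and are not read as tests. In WT its log2 change was 0.75, not called, and it stayed at 0.75 without the libraries low in Cx3cr1, none of them WT. Under cuprizone the Ptx3 difference, AHR CKO minus WT, was 0.39 with all libraries, not called, and 0.85 without those libraries. Whether Ptx3 passed depended on those libraries in both comparisons. The fit without them keeps 1 AHR CKO control library, so for Ptx3 it is not read as a test. Jchain (listed as Igj) stayed under 1 FPKM throughout. Immunoglobulin heavy and kappa chains were not analysed here.

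Downstream of the ITAM, 12 of 34 kinases and effectors rose with cuprizone in AHR CKO and none fell, while in WT 19 rose and 1 fell, where 7.22% of tested genes rose in AHR CKO and 9.08% in WT. Of the 34, 3 were under 1 FPKM in all 6 control libraries and could pass the filter only through cuprizone, as were 1 of the actin and 2 of the inhibitory genes below. Lyn, a Src family kinase that phosphorylates the ITAM, averaged 9.99 ± 2.88 FPKM in AHR CKO CPZ against 3.77 ± 0.725 FPKM in AHR CKO Ctrl, and 14.4 ± 2.98 FPKM in WT CPZ against 3.71 ± 0.283 FPKM in WT Ctrl. Tec, a non-receptor tyrosine kinase, rose 0.91 in AHR CKO and 1.32 in WT on the log2 scale. Pik3ap1 was among the strongest calls in AHR CKO (1.502), and the adaptor Lat2 and the exchange factor Vav1 among those in WT (1.92 and 1.53). Under cuprizone 5 of the 34 were lower in AHR CKO and 1 higher, against 10.8% and 9.14% of tested genes. After scaling to TPM these counts were 8 lower and 0 higher. Syk itself was among the lower ones, at 2.28 ± 0.551 FPKM in AHR CKO CPZ and 3.83 ± 0.747 FPKM in WT CPZ (-0.56, adjusted p = 0.0257, limma), with Pik3ca, Sos1 and Plcg1. Without cuprizone Prkcd was higher in AHR CKO (1.87, adjusted p = 0.0338), at 27.0 ± 14.6 FPKM in AHR CKO Ctrl and 6.25 ± 2.11 FPKM in WT Ctrl, and Pik3r1 and Pik3ca were lower. The Pik3ca call was lost under all 3 other scalings (adjusted p = 0.0539 to 0.0674) and that of Pik3r1 after median-of-ratios and quantile scaling (both 0.053). Leaving out the libraries low in Cx3cr1 gave 8 higher in AHR CKO (Tec was lost, adjusted p = 0.0652), 19 higher in WT and no call between genotypes in either treatment, with Prkcd at 2.67 (0.174) without cuprizone.

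Of 26 genes of the actin machinery of the phagocytic cup, 5 rose and 1 fell with cuprizone in AHR CKO, and 10 rose and 2 fell in WT, against 7.22% and 9.08% of tested genes for the rises. Rac2, a GTPase of blood cells, averaged 4.39 ± 1.29 FPKM in AHR CKO CPZ against 1.01 ± 0.165 FPKM in AHR CKO Ctrl, and 5.76 ± 1.37 FPKM in WT CPZ against 1.21 ± 0.235 FPKM in WT Ctrl. Its exchange factor Dock2 and the Arp2/3 subunit Arpc1b rose in both genotypes, while gelsolin (Gsn) fell in WT by 1.16. Under cuprizone 4 were lower in AHR CKO (Wasl, Crkl, Crk and Arpc5, by 0.40, 0.52, 0.41 and 0.35), where 10.8% of tested genes were, or 2 (Wasl and Crkl) without the libraries low in Cx3cr1. Most of this list is expressed by all cells.

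The inhibitory arm showed rises too. Of 15 phosphatases, adaptors and ITIM receptors tested, 6 rose in AHR CKO with cuprizone and none fell, and 9 rose and 1 fell in WT, where 7.22% and 9.08% of tested genes rose. Ptpn6, the phosphatase SHP-1, averaged 13.4 ± 3.96 FPKM in AHR CKO CPZ against 2.67 ± 0.515 FPKM in AHR CKO Ctrl, and 18.7 ± 3.42 FPKM in WT CPZ against 3.02 ± 0.347 FPKM in WT Ctrl. The ITIM receptors Cd22 and Cd72 and the adaptor Dok1 were the next strongest calls in both genotypes. Of the 15, 2 could pass the filter on low values only through the cuprizone libraries. Over the 12 libraries Cd22 ran from 0.0361 to 4.08 FPKM, Cd72 from 0.422 to 14.5 and Dok1 from 0.765 to 5.74. Each may be among these 2, and its call may then owe to the filter. The 6 and 9 rises were not counted without these 2 genes. Between genotypes under cuprizone 5 were lower in AHR CKO, against 10.8% of tested genes. The strongest was Cbl, a ubiquitin ligase that ends receptor signalling, at 1.46 ± 0.549 FPKM in AHR CKO CPZ and 5.60 ± 1.24 FPKM in WT CPZ (-1.43, adjusted p = 0.00565, limma), and it was also lower without cuprizone (-1.04, 0.0349). Cblb, Ptpn11 and Dok3 were lower by 0.53, 0.33 and 0.56. Without the libraries low in Cx3cr1 4 rose in AHR CKO (Dok1 was lost, adjusted p = 0.055), Cbl alone was lower under cuprizone (-1.28, 0.015), and none differed without cuprizone, where Cbl gave -0.87 (0.183).

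Of 11 genes of interferon gamma signalling and myeloid transcription, 8 rose with cuprizone in AHR CKO and 9 in WT, against 7.22% and 9.08% of tested genes, and none fell. Irf8, a factor of the macrophage lineage, averaged 19.1 ± 7.03 FPKM in AHR CKO CPZ against 3.44 ± 0.559 FPKM in AHR CKO Ctrl, and 27.4 ± 5.49 FPKM in WT CPZ against 3.83 ± 0.367 FPKM in WT Ctrl. Spi1, which encodes PU.1, averaged 23.1 ± 5.95 FPKM in AHR CKO CPZ against 6.68 ± 1.27 FPKM in AHR CKO Ctrl, and 27.0 ± 4.27 FPKM in WT CPZ against 5.68 ± 0.793 FPKM in WT Ctrl. Irf1 rose by 1.04 in AHR CKO and 1.07 in WT. Jak2 and Jak1, the kinases of the interferon gamma receptor, were lower in AHR CKO under cuprizone by 0.39 and 0.34. With the libraries low in Cx3cr1 left out, 4 rose in AHR CKO, 9 in WT and none differed between genotypes under cuprizone. No gene of these lists was called for the interaction.

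**Figure D5:**
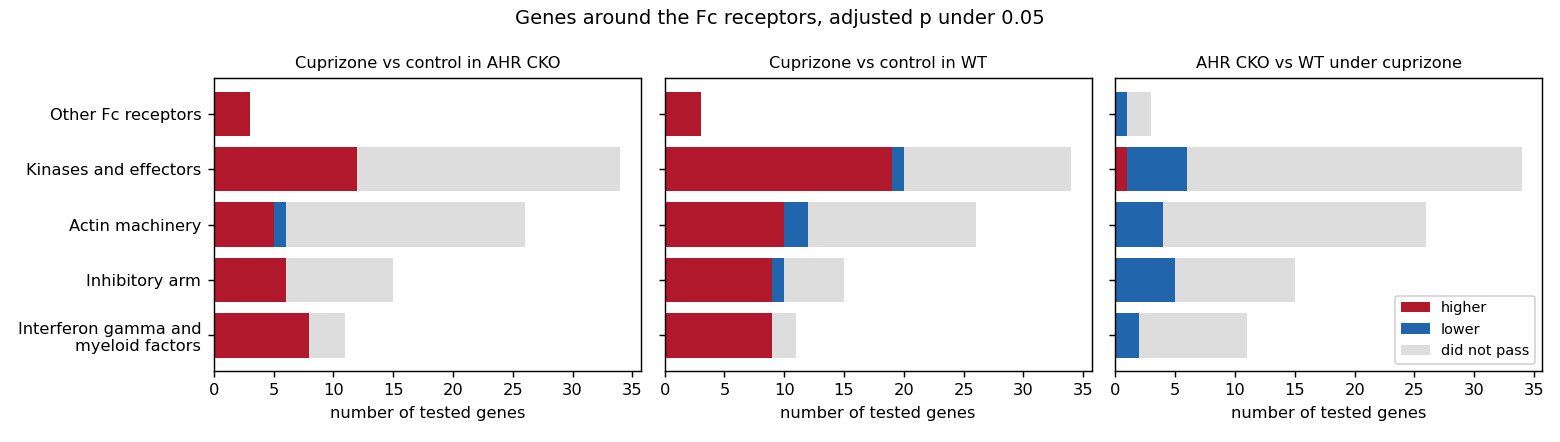
Number of tested genes (x axis) in 5 lists around the Fc receptors that were higher, lower or did not pass at an adjusted p of 0.05 (limma) in 3 comparisons. Rises fill most of the coloured length with cuprizone, from 12 of 34 kinases and effectors in AHR CKO to 19 of 34 in WT. Lower calls fill most of it between genotypes. Of all tested genes, 7.22% rose with cuprizone in AHR CKO, 9.08% rose in WT, and 10.8% were lower in AHR CKO under cuprizone. Some genes in the bars could pass the filter on low values only through the cuprizone libraries.

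The members resembled one another closely over the 12 libraries, which share the treatment difference. Pearson's r on log2(FPKM + 1) was 0.944 to 0.994 between pairs of members, and 0.521 to 0.928 after the group means were removed. The genes closest to Fcer1g were the complement chain C1qc (r = 0.996), Hcls1 (0.994), Ctsh (0.993), C1qb (0.993) and the lipid receptor Trem2 (0.992). Fcgr3 lay closest to the leukocyte phosphatase Ptprc (0.995), Laptm5 (0.994), Fcgr1 (0.994), Mpeg1 (0.994) and Ccl6 (0.993). For Fcgr1 they were Fcgr3 (0.994), the protease gene Ctss (0.993), Cmklr1 (0.992), Ly86 (0.992) and Cst7 (0.991). Fcgr2b lay closest to Olfml3 (0.991), Fcgr1 (0.989), Lat2 (0.989), Cmklr1 (0.989) and Il10ra (0.988). Fcgr4 stood apart in its neighbours, which were low in abundance like itself: Pdcd1 (0.986), Milr1 (0.984), AF251705 (0.983), AI607873 (0.979) and Pyhin1 (0.978). Among these genes AF251705 alone exceeded 5 FPKM in any library.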

How the data were processed

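RNA-seq libraries of mouse corpus callosum (mRNA-seq libraries from total RNA, SMARTER kit, per the labels' protocols) were grouped by genotype and treatment as the labels give them, 4 groups of 3. The authors deposited 1 table of FPKM values, which divide fragments by library size and by the length of the transcript, per the file headers. Per the submitters' processing notes the genome was GRCm38 (mm10). The sources used here do not name the aligner, quantifier, annotation, strandedness or filters, and antisense reads could count towards a gene. FPKM lets a few abundant genes shift all others.

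Counts were not recovered. Depth is a rough estimate from the step of low values in 1244 single-transcript genes over 1500 nt. The step was the median of 9 to 31 values between 0.05 and 0.12 FPKM times kb, which limits the answer to 8330000 to 20000000 fragments. Of the lowest values, 72.7% to 90.0% were whole multiples of the step to within 0.2, where chance gives 40%.

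Genes of at least 1 FPKM in at least 3 libraries (13759, 88.29% of the table) were tested as log2(FPKM + 1), which understates changes of low genes. The tool was limma 3.58.1 in R 4.3.3, with the 4 groups in 1 model over 12 libraries, trended eBayes, two-sided p-values adjusted by Benjamini-Hochberg over all tested genes, and a threshold of 0.05. The pipeline was tested on simulated data. Means ± SD and folds are of FPKM.

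The members, gene lists, motifs and tests were chosen with earlier results of these data known. Named genes are the 5 members, up to 4 called genes of smallest adjusted p in each list and comparison (or up to 2 of highest FPKM where none passed), the 5 genes of highest r with each member, and Tyrobp, Aif1 and Ahr. Csf1r, Cx3cr1, Ms4a7, Ly6c2, Pf4, Tmem119 and P2ry12, outside this rule, were named after their values were seen. Some genes that the rule names are not reported here. Positions came from GENCODE M21, promoters from RefSeq GRCm38.p6. Alternatives were another pseudocount (0.1), no filter, a mean of at least 5 FPKM, common total (TPM), median-of-ratios and quantile scaling, sample quality weights, no trend, a block for replicate number, fits on the compared groups only, removal of a length and GC trend (lengths for 95.4% of tested genes), and each library left out. Leaving out 3 AHR CKO libraries, and Cx3cr1 from the marker list, were added after seeing the data.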

Additional observations from a re-analysis of the deposited data

How the results depend on the processing

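The rise with cuprizone kept its direction and its call for Fcer1g, Fcgr1, Fcgr2b and Fcgr3 under every alternative that tested them, in 95 of 95 values in each genotype. Fcgr4 is not counted, since the filter fixed its call. Fits without libraries of the other genotype could not move these log2 changes, only the shared spread, so the 95 values are not separate checks. With a mean of at least 5 FPKM required, Fcgr1 and Fcgr4 were not tested. This left 3 calls in each genotype, against 4 with Fcgr4 not counted. The genotype difference under cuprizone was not stable. In place of 1 call, the common total (TPM) gave 2, sample quality weights 4, only the groups compared 0 (Fcgr3 adjusted p = 0.0837, limma), and the 3 AHR CKO libraries low in Cx3cr1 left out 0. Leaving out single libraries gave 0 to 3. TPM moved the median of all genes by -0.11 in this comparison, and Fcgr1 then passed at -0.62 (adjusted p = 0.0386). Sample quality weights called 8036 genes there and gave 1 call for the interaction, against 0. Averaged over both treatments, in place of 1 call, weights gave 4, the replicate block 0 (Fcgr3 adjusted p = 0.0516), the 3 libraries left out 0, and single libraries left out 0 to 2. Without cuprizone, 0 calls held under every alternative. Small changes reversed. Fcgr4 under cuprizone ran from -0.34 to 0.13 over single libraries left out and was 0.0836 without the 3 low in Cx3cr1. Fcgr2b without cuprizone was -0.0105 with weights, and ran from -0.0078 to 0.19 over single libraries left out. With a pseudocount of 0.1 Fcgr4 without cuprizone was -0.99 (adjusted p = 0.111) and its interaction 0.96 (0.606), as the smaller pseudocount widens changes of low values. The Fcgr4 interaction was -0.0386 with weights and ran from -0.0714 to 0.40 over single libraries left out. Averaged over both treatments Fcer1g was 0.0547 with weights and 0.0820 without the 3 libraries, and ran from -0.13 to 0.0594 over single libraries left out. The cause was not tested. The log2 ratio of Fcgr3 alone to Fcgr2b was 1.80 in AHR CKO CPZ and 2.09 in AHR CKO Ctrl, against 2.10 and 2.28 for the activating sum, since fewer transcripts enter it. Without the 3 libraries, the named genes of the surrounding lists lost 6 of 21 calls with cuprizone in AHR CKO, 12 of 15 between genotypes under cuprizone and 7 of 7 without it, and none changed sign. Same-numbered libraries deviated with r of -0.34 to 0.25, and differently numbered ones with r of -0.40 to 0.44. This shows no pairing by number but cannot exclude it, and the replicate block changed no other count of calls. With 3 libraries a group and about 1 to 8 estimated fragments of Fcgr4 in control libraries, differences in Fcgr4 without cuprizone are little resolved.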
